A study of Rattus norvegicus with 12 samples.

Results

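Grin2b encodes GluN2B, a glutamate-binding subunit of the NMDA receptor, and 3 circular RNAs (circRNAs) of this gene, rno_circRNA_011731, rno_circRNA_011733 and rno_circRNA_011734, were followed here in the orbitofrontal cortex (OFC) of rats from 4 groups. They were the 3 entries with the host gene Grin2b among the 75 circRNAs used here from the study's list of those that differed between heroin and saline rats, and each was read by its own probe among the 14145 circRNA probes of the array. The list was drawn up from the heroin and saline arrays described below, so the members were chosen by their own difference between these groups. That difference is therefore given as a description, without a test, and tests were kept to the sucrose and naive arrays, which the list did not use.

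All rats were male Sprague Dawley animals, aged 8 weeks on arrival, and each array held the OFC of 1 rat. Heroin and saline rats had a catheter in the jugular vein and self-administered heroin or saline for 6 h a day in 10 daily sessions. Sucrose and naive rats had no surgery and spent 2 h a day in the chamber over 10 daily sessions. Sucrose rats worked for chocolate sucrose pellets, while naive rats were handled and had no self-administration program running. Tissue was taken immediately after the last session, and each group held 3 rats. The saline rats thus differed from the sucrose and naive rats in surgery and in session length as well as in what was delivered. For the rats with surgery, the methods also describe single housing, food restriction and daily flushing of the catheter. These differences cannot be told apart.

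A circRNA arises when the splicing machinery joins the end of an exon back to the start of the same or an earlier exon, which closes the transcript into a ring without free ends. Such rings are plentiful in brain and resist RNase R, an enzyme that digests linear RNA and that was applied before labelling. A gene can give several rings with different junctions, and a ring can vary apart from the linear mRNA of its host gene. In the NMDA receptor, GluN2B pairs with the obligatory subunit GluN1, is prominent in the young forebrain, and carries sites through which the receptor is held at the postsynaptic density.

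The array maker's annotation placed all 3 circRNAs on the minus strand of chromosome 4. No source used here names the genome build of these positions. The scanner header names rn4 for the array grid, and whether the positions follow it is unknown. rno_circRNA_011731 was annotated as exonic at chr4:234015682-234016281, a span of 599 bp. rno_circRNA_011733 was also exonic, at chr4:234135667-234136096, a span of 429 bp. rno_circRNA_011734 was classed as sense overlapping, a class for circRNAs on the strand of the gene that are neither exonic nor intronic, at chr4:233823875-234259073, a span of 435198 bp. Both short circRNAs lay inside the span of rno_circRNA_011734 and were 119386 bp apart, and no pair shared an end. A span is the distance between the joined ends in the genome, not the length of the ring.

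**Figure D1:**
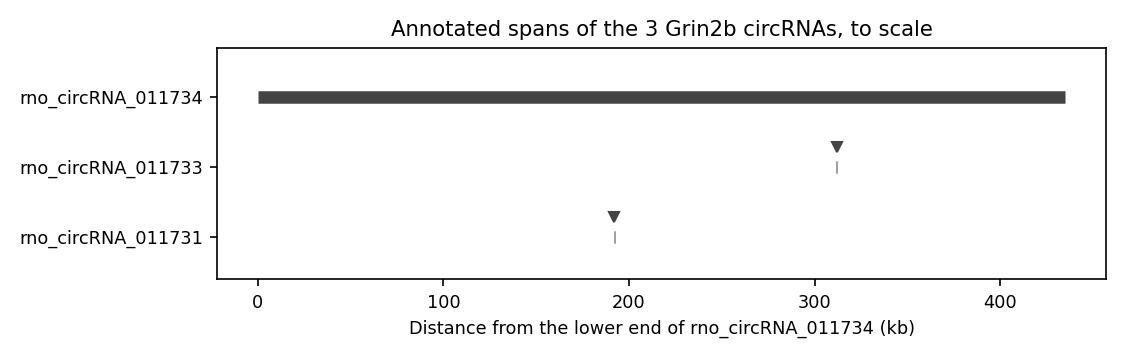
Annotated spans of the Grin2b circRNAs, drawn to scale as distance in kb from the lower end of rno_circRNA_011734, with triangles above the spans too short to see. The spans of 599 bp and 429 bp sat at separate places inside the span of 435198 bp.

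The array read each circRNA with a probe of 60 bases, shown because every value below rests on it. The 3 probes are given 5′ to 3′ as the study's list has them.
rno_circRNA_011731: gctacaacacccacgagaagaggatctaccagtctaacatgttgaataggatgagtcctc
rno_circRNA_011733: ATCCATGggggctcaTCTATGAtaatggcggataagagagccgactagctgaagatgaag
rno_circRNA_011734: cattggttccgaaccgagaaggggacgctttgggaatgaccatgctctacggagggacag
The longest run of bases that any pair of these probes shared was 7, between the probes of rno_circRNA_011731 and rno_circRNA_011734, so the probes did not read a common stretch. GC content was 46.7% for rno_circRNA_011731, 48.3% for rno_circRNA_011733 and 56.7% for rno_circRNA_011734, against 28.3% to 61.7% (median 45%) over the 75 listed probes. Probes of different sequence bind with different strength, so levels were compared between groups within a probe and never between probes.

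Capitals in the probe of rno_circRNA_011733 mark letters complementary to a miRNA seed, bases 2 to 8 of the mature miRNA, through which a miRNA pairs with its targets. The annotation named 5 miRNAs for each circRNA by the array maker's prediction, 15 in all, and none was named for more than 1 of the 3. Mature sequences of 13 of them were in the RefSeq miRNA table, with 13 different seeds. The 2 whose seed complement lay in the probe are printed with the seed in capitals.
rno-miR-490-5p: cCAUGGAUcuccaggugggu
rno-miR-376b-3p: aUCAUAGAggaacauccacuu
ATCCATG, the complement of the rno-miR-490-5p seed, covered bases 1 to 7 of the probe and occurred in 1 of the 75 listed probes (1.33%), this probe itself. TCTATGA, the complement of the rno-miR-376b-3p seed, covered bases 16 to 22 and occurred in 2 of them (2.67%), this probe included. The search used the printed strand and exact matches. Neither match shows binding, and the rest of each ring was not read here.

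Signal from the members was clear of background on every array. All 3 were well above background on 12 of 12 arrays, a flag the scanner software sets for each spot. Before normalization, background-subtracted intensity ran from 349 to 1292 for rno_circRNA_011731, from 88.9 to 410.1 for rno_circRNA_011733 and from 99.8 to 732 for rno_circRNA_011734. The lowest ratio of foreground to local background was 20.6, 6.39 and 6.47 respectively. Across all circRNA probes, the median intensity of an array ran from 70.1 to 141, and 95.7% to 98.6% of probes were well above background. Scan times and array positions placed the heroin and saline arrays and sucrose 1 and 2 on slide 1, and sucrose 3 and the naive arrays on slide 2. Within slide 1, the heroin arrays and saline 1 shared row 1, while saline 2 and 3 and sucrose 1 and 2 shared row 2. No probe for a linear RNA could be named here, so the tissue was not checked against markers of neurons or other cells. In bulk tissue, fewer cells of a type and less RNA per cell cannot be told apart.

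Levels below are normalised log2 intensities, on which a difference of 1 is a doubling. rno_circRNA_011731 was at 8.55, 9.00 and 8.51 in the heroin arrays 1, 2 and 3, and at 9.04, 9.81 and 9.63 in the saline arrays 1, 2 and 3. It was at 9.97, 9.79 and 10.17 in the sucrose arrays and at 9.99, 9.83 and 9.92 in the naive arrays. The heroin arrays were the lowest of all, and saline 1 lay just above heroin 2. Group means were 8.69 ± 0.27 in heroin, 9.49 ± 0.40 in saline, 9.97 ± 0.19 in sucrose and 9.91 ± 0.08 in naive rats (SD, n = 3). In descending order these were sucrose, naive, saline and heroin. Sucrose and naive arrays overlapped, and the highest saline array lay 0.02 below the lowest naive array.

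rno_circRNA_011733 was at 7.08, 6.82 and 6.74 in the heroin arrays and at 7.46, 8.16 and 8.13 in the saline arrays. It was at 8.32, 8.13 and 8.37 in the sucrose arrays and at 7.97, 7.55 and 7.78 in the naive arrays. Means were 6.88 ± 0.18 in heroin, 7.91 ± 0.40 in saline, 8.27 ± 0.13 in sucrose and 7.77 ± 0.21 in naive rats (SD, n = 3). The order was sucrose, saline, naive and heroin, and saline overlapped both the sucrose and the naive arrays. The wide saline spread came from saline 1, the lowest array outside the heroin group.

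rno_circRNA_011734 was at 7.51, 6.98 and 6.92 in the heroin arrays and at 7.94, 8.56 and 8.11 in the saline arrays. It was at 9.13, 8.60 and 9.35 in the sucrose arrays and at 8.10, 7.65 and 8.29 in the naive arrays. Means were 7.14 ± 0.32 in heroin, 8.20 ± 0.32 in saline, 9.03 ± 0.39 in sucrose and 8.01 ± 0.33 in naive rats (SD, n = 3). The order was again sucrose, saline, naive and heroin. Saline and naive arrays overlapped, sucrose lay above saline by a gap of 0.05, and the lowest naive array lay 0.14 above the highest heroin array.

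**Figure D2:**
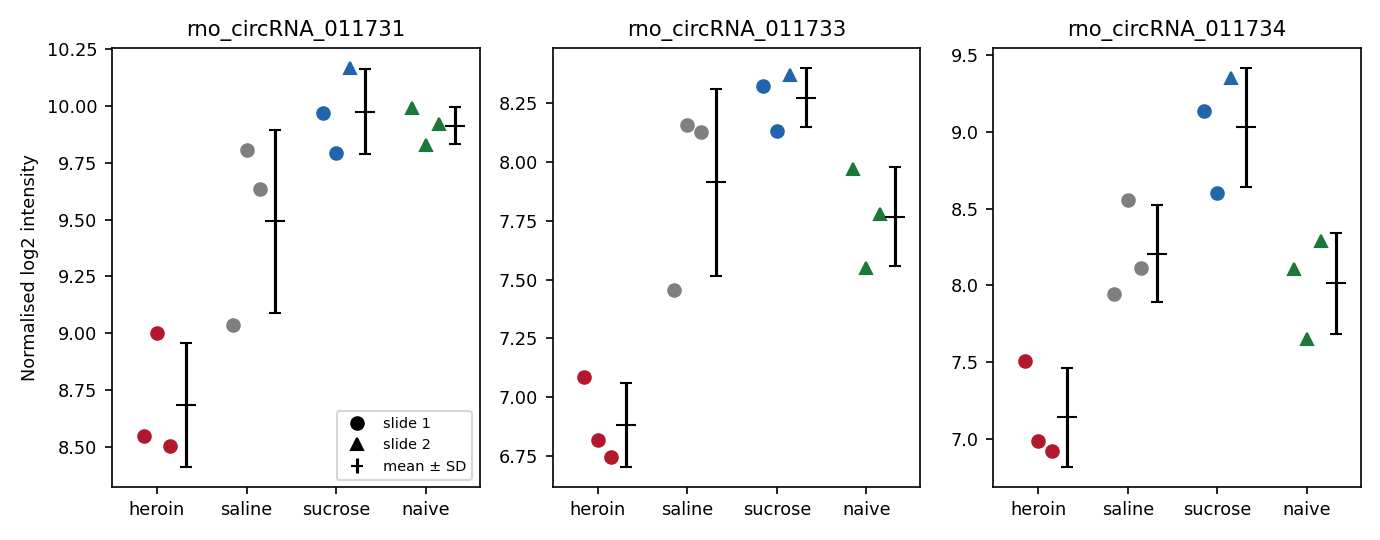
Normalised log2 intensity of each Grin2b circRNA (vertical axes, 1 panel each, scales differ) by group, with 1 point per rat, circles for slide 1, triangles for slide 2, and bars for mean ± SD of 3 arrays. Heroin arrays lie lowest in every panel, and the naive arrays lie level with sucrose for rno_circRNA_011731 but below sucrose for the other circRNAs.

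Set against saline, heroin means were lower by 0.81 for rno_circRNA_011731, 1.03 for rno_circRNA_011733 and 1.07 for rno_circRNA_011734 on the log2 scale, with standard errors of 0.21, 0.20 and 0.25 from the fit over all 12 arrays. Saline levels were thus 1.75-fold, 2.04-fold and 2.09-fold those of heroin, and rno_circRNA_011731 lay nearest to the fold of 1.5 that the study required. No Grin2b circRNA outside that threshold could be named. Every heroin array was below every saline array for all 3, a pattern seen in that direction in 6.59% of the circRNAs tested, from which nothing is read since it follows the choice of members. The median difference over all circRNAs tested was 0.01, on arrays that share 1 distribution of values after normalization. Against saline 1, the only saline array in the row of the heroin arrays, the differences were -0.35, -0.57 and -0.80.

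The heroin arrays were also compared with the groups that the list did not use, again without a test, because the members were chosen for their values on the heroin arrays. Relative to naive rats, heroin means were lower by 1.23 for rno_circRNA_011731, 0.88 for rno_circRNA_011733 and 0.87 for rno_circRNA_011734. Relative to sucrose rats they were lower by 1.29, 1.39 and 1.89 in the same order. On slide 1 alone, with sucrose 1 and 2, the last 3 differences were -1.19, -1.34 and -1.73. For each of the 3 circRNAs, every heroin array was below all 9 others, against 126 of all circRNAs tested (0.902%), and the naive arrays lay on the other slide. Heroin below saline is part of this pattern, held for 921 circRNAs (6.59%) and follows the choice of members. The share of 0.902% therefore says nothing of how rare the pattern is among circRNAs chosen in this way. Saline means lay within 0.15 of naive for rno_circRNA_011733 and within 0.19 for rno_circRNA_011734. For rno_circRNA_011731, saline was below naive by 0.42, and slide and group cannot be told apart there.

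Sucrose against naive compared rats without surgery that worked for pellets with rats that had no self-administration program running. The pellets and the work for them cannot be told apart. Standard errors and intervals in this paragraph come from the main fit, whose spread also draws on the heroin and saline arrays. rno_circRNA_011734 was 2.02-fold higher in sucrose than in naive rats, a log2 difference of 1.02 ± 0.25 (SE), with a 95% confidence interval of 0.47 to 1.56. rno_circRNA_011733 was 1.42-fold higher, a log2 difference of 0.51 ± 0.20 (SE; 95% interval 0.07 to 0.95). Every sucrose array was above every naive array for both, as in 5.14% of all circRNAs tested. These 2 had every heroin array below every saline array as well, which follows the choice of members. Among all circRNAs tested, the heroin part held for 921 (6.59%) and both parts together for 51 (0.365%). The smaller share shows no rarity, since the members were chosen on the heroin part. rno_circRNA_011731 differed by 0.06 ± 0.21 (SE), its arrays overlapped, and the 95% interval, -0.39 to 0.52, still allowed a modest change either way.

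None of these differences passed adjustment over the 13979 circRNAs tested. Adjusted p in limma was 0.926 for rno_circRNA_011731, 0.397 for rno_circRNA_011733 and 0.323 for rno_circRNA_011734, and 0% of all circRNAs passed at 0.05. A limma fit of only the 6 sucrose and naive arrays does not draw on the heroin and saline arrays for its spread. Its differences were 0.06 ± 0.18 for rno_circRNA_011731, 0.51 ± 0.19 for rno_circRNA_011733 and 1.02 ± 0.25 for rno_circRNA_011734 (SE). Adjusted p in this fit was 0.93 for rno_circRNA_011731 and 0.61 for each of the others. Of the 3, rno_circRNA_011733 and rno_circRNA_011734 were higher in sucrose at an unadjusted p below 0.05 in the main limma fit, as were 5.01% of all circRNAs. rno_circRNA_011733 was no longer below 0.05 without sucrose 1, sucrose 3 or naive 2, while rno_circRNA_011734 stayed below it under each of these. With slide as a block or within slide 2, only sucrose 3 stands against the naive arrays, so no p is read from these fits. An exact two-sided permutation test of 3 arrays against 3, whose smallest possible p is 0.1, gave 0.7, 0.1 and 0.1. In size, 107 of the 13979 circRNAs (0.765%) had a larger sucrose minus naive difference than rno_circRNA_011734, 830 had a larger one than rno_circRNA_011733 and 5585 a larger one than rno_circRNA_011731. The median over all circRNAs tested was -0.01, and 6770 of the 13979 were higher in sucrose. Among the 39 other listed circRNAs that were lower after heroin, the median was 0.13, with 25 of 39 higher in sucrose. Every sucrose array was above every naive array for 3 of the 39, against 5.14% of all circRNAs tested.

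**Figure D3:**
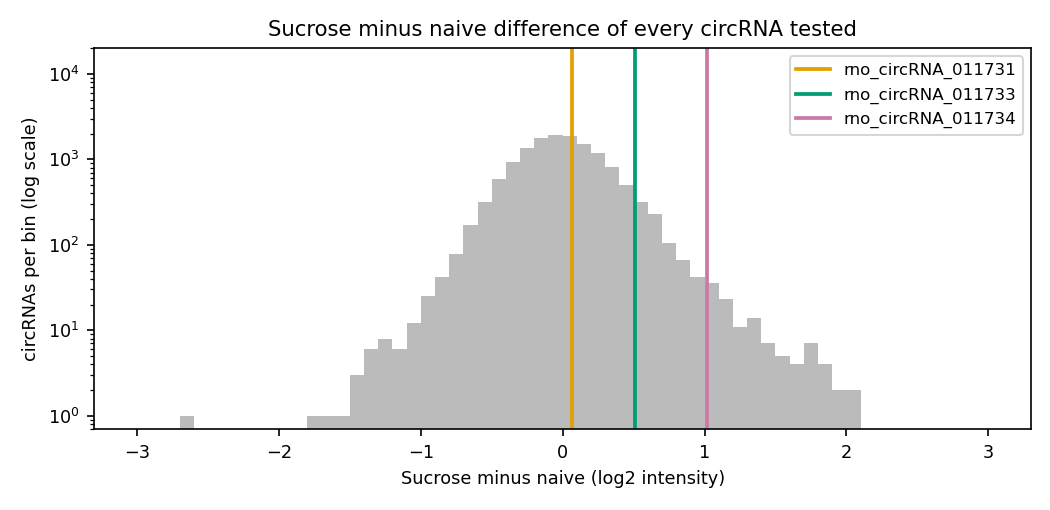
Histogram of the sucrose minus naive difference in log2 intensity (horizontal axis) over all circRNAs tested, with circRNAs per bin of 0.1 on a log scale (vertical axis) and coloured lines at the Grin2b circRNAs. rno_circRNA_011731 at 0.06 lies in the bulk, rno_circRNA_011733 at 0.51 on the upper slope and rno_circRNA_011734 at 1.02 in the upper tail.

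Slide and brightness ran partly with these groups. Within slide 2, sucrose 3 exceeded the naive mean by 0.25 for rno_circRNA_011731, 0.60 for rno_circRNA_011733 and 1.34 for rno_circRNA_011734, where 1 sucrose rat stands for its group. Sucrose 3 was the highest sucrose array for all 3, and without it the differences were -0.032, 0.46 and 0.86. Slide and rat cannot be told apart in that array. Median array intensity was 124 to 141 in the sucrose arrays and 70.1 to 114 in the naive arrays before normalization. These ranges did not overlap, and the part of brightness in the result was not tested.

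The difference between isoforms within each array was examined, a choice made after the values were seen. Such a difference is free of anything that raises or lowers a whole array on the log scale. Only its change between groups has meaning, since the probes differ. The log2 level of rno_circRNA_011734 less that of rno_circRNA_011731 was -0.83, -1.19 and -0.81 in the sucrose arrays and -1.89, -2.18 and -1.63 in the naive arrays. The sucrose arrays lay above the naive arrays without overlap, and the means, -0.94 ± 0.21 and -1.90 ± 0.28 (SD, n = 3), differed by 0.95. For rno_circRNA_011733 less rno_circRNA_011731, the arrays ran from -1.80 to -1.64 in sucrose and from -2.28 to -2.02 in naive rats, a difference of 0.44 between means, again without overlap. The saline arrays, all on slide 1, also lay above the naive arrays in both differences. They ran from -1.52 to -1.09 for rno_circRNA_011734 less rno_circRNA_011731 and from -1.65 to -1.51 for rno_circRNA_011733 less rno_circRNA_011731. Heroin arrays overlapped the naive arrays in both. For rno_circRNA_011734 less rno_circRNA_011733, the sucrose and naive means differed by 0.51 and their arrays overlapped. No test is read from these values, since they prompted the comparison and 3 arrays against 3 cannot give an exact p below 0.1, so a difference in response between the isoforms is not shown.

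**Figure D4:**
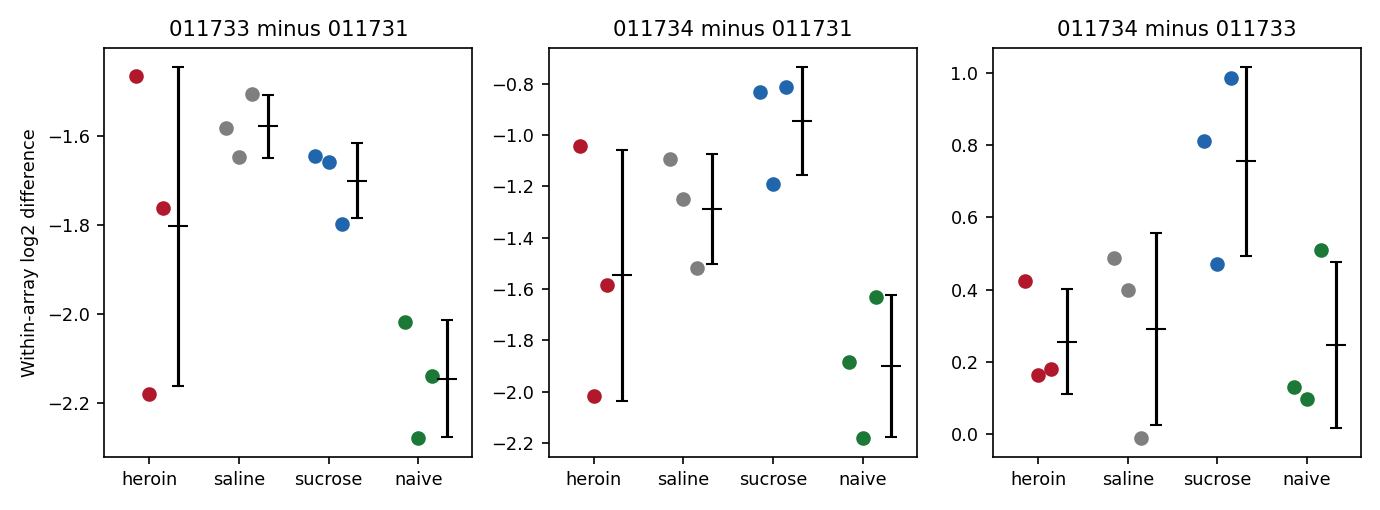
Log2 level of a Grin2b circRNA less that of another within each array (vertical axes, 1 panel per pair, scales differ) by group, with 1 point per rat and bars for mean ± SD of 3 arrays. In the panels that subtract rno_circRNA_011731, naive arrays lie below all sucrose and all saline arrays, and the heroin arrays spread over more than 0.7 log2 units.

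Rats of the same group also differed from each other. Deviations of each array from its group mean over all 12 arrays correlated with r = 0.70 between rno_circRNA_011731 and rno_circRNA_011733, r = 0.47 between rno_circRNA_011731 and rno_circRNA_011734, and r = 0.73 between rno_circRNA_011733 and rno_circRNA_011734. Over all other circRNAs tested, the median of this r with each member was 0.00 to 0.01. A higher r with rno_circRNA_011733 than that of rno_circRNA_011734 was found for 1.27% of circRNAs, and a higher r with rno_circRNA_011734 for 2.55%. For the pair of rno_circRNA_011731 and rno_circRNA_011733, the shares were 1.45% with rno_circRNA_011731 and 1.78% with rno_circRNA_011733. For the pair of rno_circRNA_011731 and rno_circRNA_011734, 9.4% of circRNAs had a higher r with rno_circRNA_011731 and 13.3% a higher r with rno_circRNA_011734. These r are descriptions over arrays that share slides and normalization, so no p is given. On the 6 sucrose and naive arrays alone they were 0.77, 0.86 and 0.79, and in the authors' deposited values 0.48, 0.77 and 0.71. The shares of circRNAs with a higher r on these 6 arrays were 7.4% with rno_circRNA_011731 and 4.4% with rno_circRNA_011733 for the first pair. They were 3.7% with rno_circRNA_011731 and 3.3% with rno_circRNA_011734 for the second, and 4.0% with rno_circRNA_011733 and 6.3% with rno_circRNA_011734 for the third.

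The circRNAs whose profile over the 12 arrays was most like that of the members were found by Pearson's r with the mean of the 3 members, each centred and scaled over the arrays. Of 13967 circRNAs compared, 71 had an r above 0.8 and 10 an r above 0.9. The highest, at r = 0.96, was rno_circRNA_010393 (probe ASCRPR004548), whose host gene Ppp1r16b encodes a regulatory subunit of protein phosphatase 1. Its means were 7.14 ± 0.21 in heroin, 8.19 ± 0.50 in saline, 8.53 ± 0.33 in sucrose and 8.23 ± 0.06 in naive rats (SD, n = 3). The next were the probes ASCRPR012916, ASCRPR006501, ASCRPR012258 and ASCRPR006191, at r = 0.94, 0.94, 0.93 and 0.92, whose host genes could not be named from the sources used here. All 5 were highest in sucrose and lowest in heroin rats, which is what likeness to the members asked for. Their sucrose minus naive differences ran from 0.25 to 0.61.

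**Figure D5:**
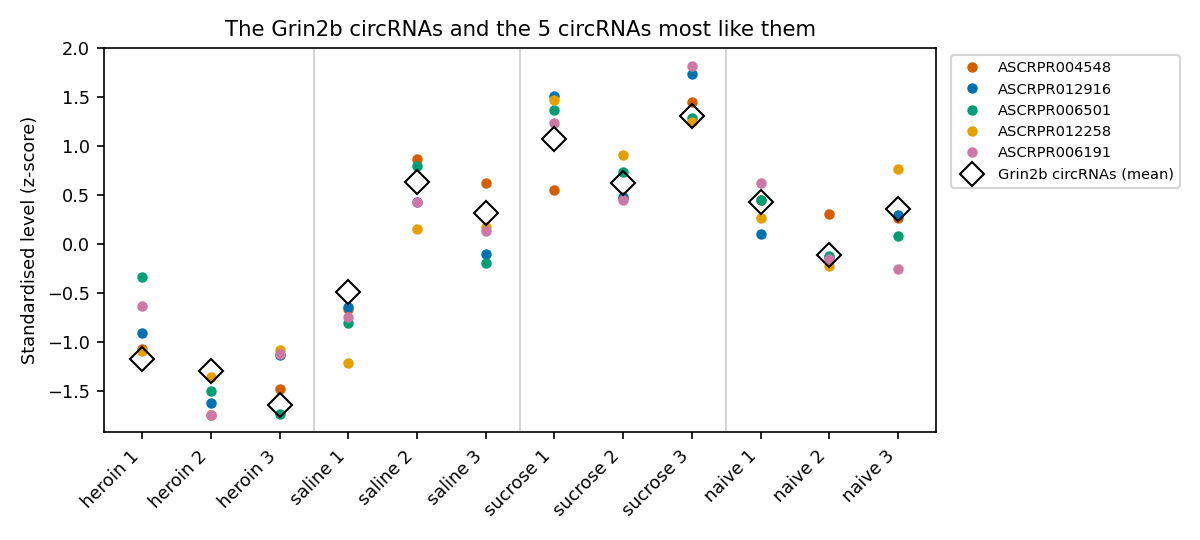
Standardised level (z-score over the 12 arrays, vertical axis) of the mean of the Grin2b circRNAs (diamonds) and of the 5 circRNAs with the highest r to it (coloured points) on each array (horizontal axis, grey lines between groups). Group means of all 6 profiles are lowest in heroin and highest in sucrose rats, and saline 1 lies below the other saline arrays in each.

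Other genes were read from a glutamate synapse list of 54 genes, mainly for receptors, transporters, scaffolds and signalling enzymes. The study's list named a circRNA for 6 of them, 13 circRNAs in all, and 10 of these belonged to genes other than Grin2b. The list of 54 was drawn up with earlier results of these data known and included Anks1a, Anks1b, Magi2 and Adcy5. How many of its genes were named is therefore no result. Since all 13 circRNAs were listed for their heroin against saline difference, their directions are descriptions. Of the 10, 6 were lower and 4 were higher in heroin than in saline rats. Of the 75 circRNAs used here from the study's list, 42 were listed as lower. Lower were the 5 circRNAs of Anks1b, a postsynaptic density protein, by 0.80 to 1.00 on the log2 scale, and that of Grik4, a kainate receptor subunit, by 0.80. Higher were those of Anks1a at 1.19, Adcy5, an adenylyl cyclase, at 0.73, and Magi2, a synaptic scaffold with 2 circRNAs, at 0.59 and 0.60.

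Over the 12 arrays, r with the mean of the Grin2b circRNAs was 0.83 to 0.92 for the Anks1b circRNAs, 0.30 for that of Grik4, -0.54 for that of Anks1a, -0.30 for that of Adcy5 and -0.17 to -0.16 for those of Magi2. The choice of all these circRNAs by their heroin against saline difference enters these r, so nothing is read from their order. Sucrose minus naive differences of the 5 Anks1b circRNAs ran from 0.06 to 0.28. Sucrose and naive arrays overlapped for all 10 circRNAs of genes other than Grin2b. Over all circRNAs tested they did not overlap, in either direction, for 13.4%, so a count of 0 in 10 is no result about these genes.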

How the data were processed

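RNA from the OFC of 12 rats was digested with RNase R, labelled with Cy3 and hybridised to 1-colour circRNA arrays. The authors deposited, per array, the scanner output of Feature Extraction 11.0.1.1 (background-subtracted intensity, median foreground and background intensity, and spot flags coded 0 or 1) and a table of log2 values. The deposited log2 values had medians of 7.02 to 7.03 and followed the log2 foreground without subtraction (r = 0.999 to 1.00 per array); the methods name quantile normalization. No source used here gives the genome build of the annotated positions, and the scanner header names rn4 for the array grid. Per the labels, each sample was assigned to heroin, saline, sucrose or naive by its treatment.

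Here, log2 background-subtracted intensity was quantile-normalized over the 12 arrays, after 9 outlier spots were left out; no circRNA spot was saturated. The 13979 of 14145 probes that the scanner flagged as clearly over background on 3 or more of the 12 arrays, all 3 members among them, were fitted with limma 3.58.1 in R 4.3.3 as 4 group means sharing 1 spread, with Benjamini-Hochberg adjustment over all. The fit was checked on simulated data. Exact permutation tests and correlations were computed in Python 3.11.15. The members and gene lists were chosen with earlier results of these data known. Genes named beyond the members were the 5 circRNAs with the highest r to their mean profile and the listed circRNAs of the glutamate synapse list. The planned correlations with p over the 6 sucrose and naive arrays were replaced by deviations from group means, because sucrose and naive arrays of 2 members did not overlap. Nothing says whether RNA was extracted on separate days, so p-values measure the spread between rats and arrays together. Probe sequences and positions came from the study's list, miRNA sequences from RefSeq. Alternatives tried were other background corrections and scalings, filters, the deposited values, slide, slide row or replicate number as a block, the methods' t-test, the arrays in the fit and each replicate left out. Precision is limited by having 3 arrays in each group. qPCR was not analysed here.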

Additional observations from a re-analysis of the deposited data

Results flagged for a closer look

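For 2 of the 3 Grin2b circRNAs, each heroin array was below each saline array and each sucrose array was above each naive array. Both sides held for 51 of all circRNAs tested (0.365%), and the heroin side alone for 921 (6.59%). The heroin side follows from how the circRNAs were chosen, so the smaller share shows no rarity. The sucrose side alone held for 5.14% and did not pass adjustment in limma (adjusted p 0.397 and 0.323). The heroin minus saline difference less the sucrose minus naive difference was -1.54 on the log2 scale for rno_circRNA_011733 and -2.08 for rno_circRNA_011734. This difference between contrasts was not tested, since the circRNAs were chosen on the first of them, and the arms differ in surgery and session length. Groups of 3 arrays are too small for a check of single outlying arrays.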

How the results depend on the processing

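The heroin minus saline differences kept their direction under all 13 alternatives for each circRNA. This was largely fixed in advance, since the members were chosen on this difference and every heroin array was below every saline array. With slide row as a block, the difference became -0.35 for rno_circRNA_011731 and -0.57 for rno_circRNA_011733, because only saline 1 shared a row with the heroin arrays. With each array left out in turn, it ran from -1.03 to -0.65, from -1.26 to -0.91 and from -1.25 to -0.89 for rno_circRNA_011731, rno_circRNA_011733 and rno_circRNA_011734. Sucrose minus naive stayed positive under all 18 alternatives for rno_circRNA_011733 (0.40 to 0.61, adjusted p 0.287 to 0.783) and rno_circRNA_011734 (0.83 to 1.34, adjusted p 0.123 to 0.783). Among these alternatives, slide as a block, slide row as a block and within slide 2 gave the same difference, that of sucrose 3 from the naive arrays. For rno_circRNA_011731 the sucrose minus naive difference ran from -0.032 to 0.15 with each array left out, turning negative without sucrose 3. The count of circRNAs at an adjusted p below 0.05 was 0 in the fit reported, with 1558 at an unadjusted p below 0.05. The methods' t-test gave 981 before and 0 after adjustment. The count was 1 without background subtraction, 2 with normexp and 3 with the deposited values, and ran from 0 to 11 with each array left out, the 11 without sucrose 3. No Grin2b circRNA passed in any of these. In the replicate block, adjusted p was 0.935, 0.513 and 0.451 for rno_circRNA_011731, rno_circRNA_011733 and rno_circRNA_011734 in sucrose against naive rats, no call changed, and arrays of the same number did not deviate together (r -0.20 to -0.04). The difference between isoforms, whose alternatives were chosen after seeing the data, ran from 0.35 to 0.51 for rno_circRNA_011733 less rno_circRNA_011731, from 0.81 to 1.09 for rno_circRNA_011734 less rno_circRNA_011731 and from 0.39 to 0.74 for rno_circRNA_011734 less rno_circRNA_011733. Alternatives planned for the pooled correlations were not run.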
